A study of Mus musculus with 2 samples.

Results

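A pair of 100 kb stretches of the mouse genome (mm8) were followed in detail: chromosome 9 from 24490001 to 24590000, around the start of Tbx20, and chromosome 2 from 104890001 to 104990000, around the starts of Wt1 and its antisense gene Wt1os. The members are all 1000 windows of 200 bp in these stretches, 500 in each, of 13153097 windows spanned in the genome. At least 1 read was listed for 139 Tbx20 windows in WT and 119 in Lsh_KO, and for 328 and 252 Wt1 windows; the others count as 0, and no filter on low values was applied. They were chosen by their read counts, which an earlier look at these files had shown to be lower in the mutant line, so every Lsh_KO to WT value here is a description of these data and is given with no test. Reads are trimethylation of lysine 4 of histone H3 (H3K4me3) in mouse embryonic fibroblast lines. WT is the Lsh+/+ line and Lsh_KO the Lsh-/- line, both grown in DMEM with 10% serum, with 1 library per line and no input library used here. Whether a line is a single clone, and which part of the Lsh gene (Hells) is deleted, is stated in none of the sources used here. Lsh_KO against WT therefore compares 2 libraries, and genotype, line and library preparation cannot be told apart.

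Tbx20 is a T-box transcription factor of the developing heart, needed for heart chambers and valves. Wt1 is a zinc finger transcription factor of the kidney, the gonad and the mesothelium, which includes the epicardium that covers the heart. Wt1os is a long noncoding RNA gene that starts beside Wt1 and is transcribed the other way. H3K4me3 is deposited by SET1 and MLL complexes at CpG-rich starts of active genes and at many silent developmental genes, where it can lie together with the Polycomb mark. Lsh, an SNF2-type remodeller of nucleosomes, is needed for normal DNA methylation.

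Gene starts were placed on mm8 by matching the deposited reads to RefSeq promoter sequences (build GRCm38.p6), since no mm8 annotation was used here. Of 27025 genes with a promoter sequence, 11408 had a start placed by at least 2 reads without a mismatch. Wt1os was placed at 104927349 by 4 such reads, 3 from WT and 1 from Lsh_KO. The table of promoter sequences has no entry for Wt1, whose start was not placed. In the RefSeq gene order Wt1 is the direct neighbour of Wt1os, on the side of higher coordinates. Tbx20 did not reach 2 reads. A single WT read with 1 mismatch put the start at 24524710 on the minus strand. Its first and last base lay at -61 and -37 from that start. Its alignment score was 10, beside a median of 52 for WT reads between 24520001 and 24526000. All Tbx20 distances below rest on that read. Exons and introns under the windows were not analysed here.

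The 250 bases upstream of the RefSeq start of Tbx20 (GRCm38.p6 chr9:24774304-24774553, minus strand) are shown because they lie at the edge of the marked stretch. Those of Dpy19l1, the nearest protein-coding gene placed before the stretch (GRCm38.p6 chr9:24503141-24503390, minus strand), are shown beside them, since its start was not called lower or higher. The third sequence is the read that placed Tbx20. In the promoters, capitals mark CpG pairs, the bases that DNA methylation acts on. In the read, the capital marks the mismatch G13C (promoter base, position from the 5′ end of the read on the promoter strand, read base).
Tbx20 upstream: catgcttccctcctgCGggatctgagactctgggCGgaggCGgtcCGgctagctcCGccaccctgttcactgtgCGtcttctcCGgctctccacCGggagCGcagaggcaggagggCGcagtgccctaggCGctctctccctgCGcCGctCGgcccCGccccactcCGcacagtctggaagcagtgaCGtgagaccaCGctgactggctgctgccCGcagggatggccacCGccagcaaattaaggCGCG
Dpy19l1 upstream: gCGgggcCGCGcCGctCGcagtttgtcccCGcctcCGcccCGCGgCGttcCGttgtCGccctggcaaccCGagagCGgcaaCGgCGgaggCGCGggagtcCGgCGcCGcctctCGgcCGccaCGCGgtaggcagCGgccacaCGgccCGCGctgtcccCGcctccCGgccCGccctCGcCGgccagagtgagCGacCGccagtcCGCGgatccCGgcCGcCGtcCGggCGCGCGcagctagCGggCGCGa
Tbx20 placing read: tgagaccacgctCactggctgctgc

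The Tbx20 upstream sequence holds 22 CpG pairs, has a GC content of 68.8% and an observed over expected CpG of 0.749. As many CpG pairs were found in 14.8% of 32851 RefSeq promoters of this length, whose median is 6. The Dpy19l1 sequence holds 48 CpG pairs, reached by 0.186% of promoters, with a GC content of 80.8%. Both strands of the Tbx20 sequence were searched for 5 motifs. The GC box GGGCGG, known to bind Sp1, occurred 2 times, with first bases at -219 and -95 from the start, and is present in 32.7% of promoters. TGACG, the core of a CRE site, occurred once, at -66, and is present in 17.8%. The CCAAT box, searched as CCAAT, was not in this window and is present in 33.8% of promoters. Neither was the TATA box, searched as TATAAA and present in 12.4%. The core of a T-box site, searched as AGGTGT and present in 11.8% of promoters, was not found in the window either.

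Library facts bear on every value. The WT library held 2471782 and the Lsh_KO library 2790389 distinct reads, counted once per position and strand. Outside marked windows both had 1.36 reads per 2 kb. To be called marked, a window needed 10 reads or more and a count 5 times that background. Ratios of Lsh_KO to WT were divided by 1.42, the median ratio of 2 kb windows marked in both. Scaling by total reads instead raises every log2 ratio by 0.33. After the division, equal background reads stand at a ratio of 0.704 (log2 -0.51), so reads are given beside each ratio at low levels. A window or promoter was called lower or higher when it held at least 20 reads together, the ratio was at least 2-fold and its exact 95% interval excluded 1. Intervals cover counting error only. Marked fibroblast genes were found in both lines: 10 of 20 fibroblast markers had a placed start, all 10 with at least 10 WT reads. Among them was Vim, a filament protein, with 126 WT and 201 Lsh_KO reads. Of the 20, 13 have a promoter sequence in the table, and Col1a1, Col1a2 and Thy1 are among those not placed. Placing itself needs matching reads, so it favours marked starts. None of 18 markers of other cell types was placed, and 12 of these have a promoter sequence in the table. At the start of Hells itself the lines held 84 and 116 reads, a log2 ratio of -0.04; this checks nothing where the deleted part lies elsewhere in the gene.

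In WT the Tbx20 gene carried a block of H3K4me3 that began at the start and ran into the gene, and Lsh_KO held almost none of it. In the deposited 200 bp windows, the WT block spanned 24518801 to 24524800, a region of 6000 bp with 433 reads, from -90 to 5909 bases from the placed start, counted into the gene. Only 43 of 11184 WT regions were as wide, 0.384%, this one included. No Lsh_KO region was drawn in the 100 kb. Regions are runs of windows with at least 6 reads each, bridging gaps no longer than 1 kb and holding 20 reads or more. Fewer cells carrying the mark and less mark per cell cannot be told apart in such samples.

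The WT block had a sharp edge at the start. The window from 24524401 to 24524600, centred 210 bp inside the gene, was the highest of the stretch, with 65 WT reads and 6 in Lsh_KO. Its neighbour inside the gene, from 24524201, held 43 and 4. The window over the start, from 24524601, held 7 and 3, and the next one upstream held 0 in WT and 4 in Lsh_KO. A further peak lay deeper in the gene, where the window from 24521001 held 30 WT and 0 Lsh_KO reads. Over the 40 windows from 24518001 to 24526000, WT had 435 reads with 25 windows of at least 6, and Lsh_KO had 42 reads with 2 such windows. The highest Lsh_KO window of the whole stretch held 6 reads.

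**Figure D1:**
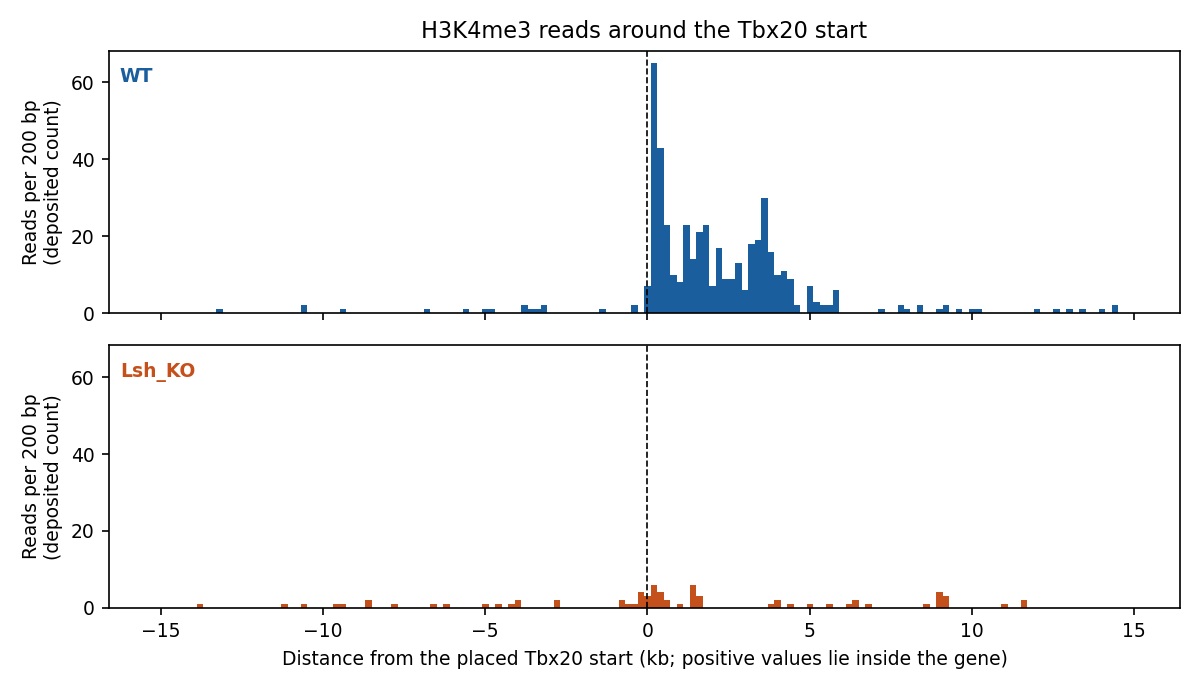
Deposited reads per 200 bp window (y axis) against distance from the placed Tbx20 start (x axis, kb, positive inside the gene), WT above and Lsh_KO below; the dashed line is the start. The WT block rises to 65 reads just inside the gene and reaches about 5909 bases into it, whereas no Lsh_KO window exceeds 6 reads.

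Counted in 2 kb windows of distinct reads, 3 neighbouring windows were called lower. The window from 24520001 held 75 WT reads and 1 Lsh_KO read, a log2 ratio of -6.74. The window from 24522001 held 74 and 6 reads, a log2 ratio of -4.13, and the one from 24524001, over the start, held 69 and 12, a log2 ratio of -3.03. WT was about even over the 3 windows, while what remained in Lsh_KO lay nearest to the start. All 3 windows of the stretch with at least 20 reads were called lower and none higher, where 5.80% of 21163 such windows in the genome were called lower and 3.45% higher. Of 4720 marked windows with at least 50 WT reads, 2 had a ratio as low as the window from 24520001, itself included, and 17 one as low as the window over the Tbx20 start. These calls come from the contrast that chose the stretch and support nothing further.

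Measured from the start, the first 2 kb of the gene held 117 reads in WT against 13 in Lsh_KO, a level 12.8-fold lower (95% interval 7.19 to 24.7). The next 4 kb, from 2 to 6 kb inside, held 112 and 2 reads, 79.6-fold lower (21.5 to 665). The 10 kb upstream held 10 and 16 reads, and the 4 kb beyond the block 5 and 7. Per 2 kb these were 2.00 WT and 3.20 Lsh_KO reads upstream, and 2.50 and 3.50 beyond the block. Background was 1.36 in each line. Of the 4 windows marked in either line, all 4 were marked in WT and 1 in Lsh_KO. Together they held 231 and 23 reads, 14.3-fold lower (9.28 to 23.0). In units of background, WT stood at 42.4 times and Lsh_KO at 4.22 times in these windows. The other 46 windows held 2.02 WT and 1.89 Lsh_KO reads each.

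Outside the Tbx20 block the lines were closer. Over the 5 Mb around it, background reads scaled by their total, and not by 1.42, gave a ratio of 0.966 (0.926 to 1.01). Divided by 1.42 instead, the adjacent 100 kb gave 0.554 (0.407 to 0.754) before the stretch and 0.660 (0.489 to 0.889) after it. On that scale equal background reads stand at 0.704. Of the 3 nearest placed starts on each side none was called. Among all placed promoters with at least 20 reads, 3.38% were called lower and 2.06% higher. Dpy19l1, which encodes a C-mannosyltransferase-like membrane protein, held 54 WT and 90 Lsh_KO reads within 1 kb of its start (log2 0.23). Herpud2, related to a factor of protein quality control in the endoplasmic reticulum, held 77 and 109 (log2 -0.01), and Bmper, a secreted BMP regulator, 89 and 126 (log2 -0.01). The noncoding LOC115487153 held 32 and 68 (log2 0.58) and shares part of its reads with Dpy19l1. Gm29642, also noncoding, held 55 and 73 (log2 -0.10) and shares part with Herpud2. E130101E03Rik held only 4 and 5, below the 20 reads that a call needs.

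The repeat share of reads also differed within the block. Between 24520001 and 24526000, 313 WT reads stood on 218 positions and strands, 30.4% repeats, whereas all 19 Lsh_KO reads were distinct. Over the whole libraries repeats were 13.9% of WT and 18.6% of Lsh_KO reads, and the Lsh_KO share in the block rests on 19 reads. Strands were balanced, with 112 forward and 106 reverse reads in WT and 8 and 11 in Lsh_KO. Mismatches were found in 16.1% of these WT and 10.5% of these Lsh_KO reads, against 15.6% and 15.2% in the whole libraries. Over the marked windows of the stretch, the log2 ratio was -3.84 in distinct reads, -4.42 with repeats kept and -3.80 without mismatched reads. Beyond these settings, the part of repeats and mismatches in the difference was not tested. The WT reads had a GC content of 51.3% and an observed over expected CpG of 0.503, so the marked stretch inside the gene was poorer in CpG than the 250 bases before the start.

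At Wt1 the mark was at high level in both lines. After scaling, ratios of Lsh_KO to WT were lower on either side of a shared centre than in it. The central 4 kb was itself 1.32-fold lower (1.13 to 1.54). In WT a single region of 12800 bp, from 104923201 to 104936000, held 1170 reads. It ran from -4148 to 8651 bases from the Wt1os start, counted toward Wt1, and only 2 of 11184 WT regions were as wide, this one included. In Lsh_KO the region spanned 104926201 to 104934400, 8200 bp with 865 reads, from -1148 to 7051 bases; 12 of 11580 Lsh_KO regions were as wide. A small WT region from 104898001 to 104898800 held 33 reads, 21 of them in the window from 104898601. No Lsh_KO region was drawn there, although the 2 kb window from 104898001 was marked in both lines (17 and 10 distinct reads).

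In unscaled counts, the centre was of like height and place in both lines. The highest 200 bp window was at 104928001 in WT, with 57 reads, and at 104928401 in Lsh_KO, with 66 reads, centred 751 and 1151 bp to the Wt1 side of the Wt1os start. The WT count in the second of these windows was 55 and the Lsh_KO count in the first was 44. On the Wt1os side, a separate peak from 104926401 held 42 and 43 reads. A dip lay between them, where the window from 104927401 held 4 and 10 reads.

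**Figure D2:**
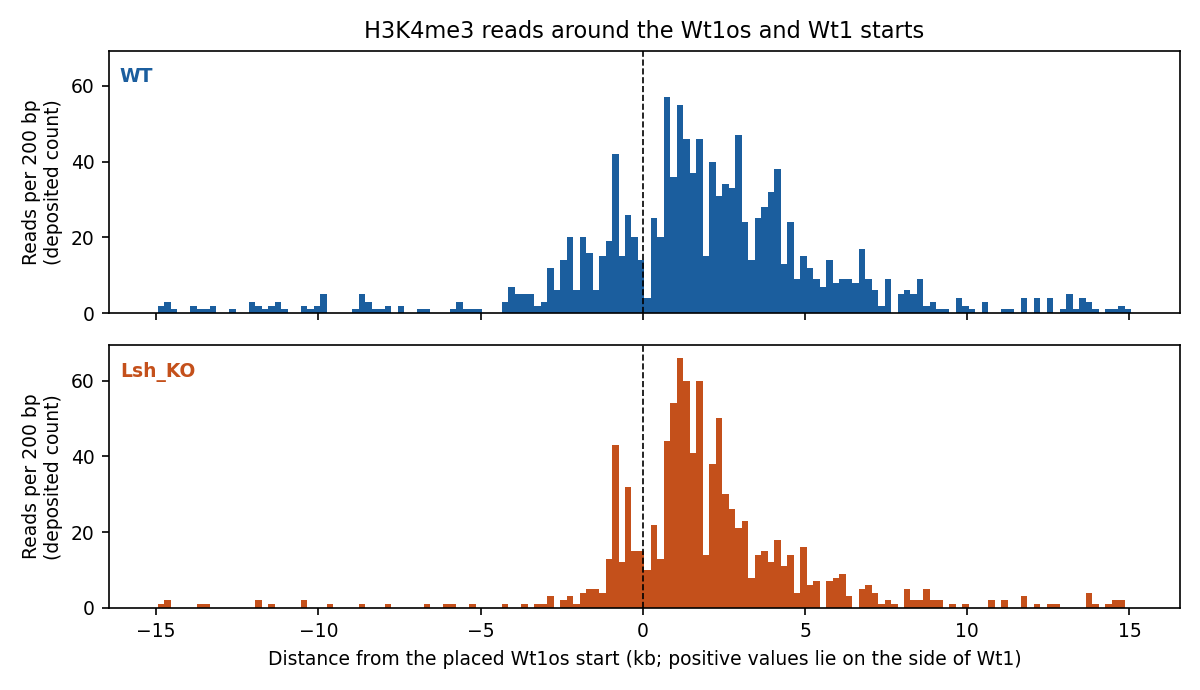
Deposited reads per 200 bp window (y axis) against distance from the placed Wt1os start (x axis, kb, positive on the side of Wt1), WT above and Lsh_KO below; the dashed line is the start. The central peaks reach 57 and 66 reads, and the region drawn around them, centre included, is 12800 bp wide in WT and 8200 bp in Lsh_KO.

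The 2 kb windows showed the same layout. The central window from 104928001 held 196 WT and 231 Lsh_KO reads (log2 -0.27), and the one from 104926001, over the Wt1os start, 101 and 90 (log2 -0.67); neither was called. On the Wt1os side the window from 104924001 held 62 and 15 reads (log2 -2.55) and the one from 104922001 held 17 and 3 (log2 -3.01). On the Wt1 side the windows from 104930001, 104932001 and 104934001 held 148 and 97, 49 and 34, and 46 and 17 reads, with log2 ratios of -1.12, -1.03 and -1.94. Together with the windows from 104898001 (17 and 10) and 104900001 (14 and 7), 7 of 15 windows with at least 20 reads were called lower, and none higher, beside the same 5.80% and 3.45% over the genome. Under scaling by total reads only 3 of the 7 were called, those from 104922001, 104924001 and 104934001, and the central window stood at a log2 ratio of 0.06. Those 3 were also the ones called with a scaling that included the background ratio over 5 Mb. Over the genome, scaling by total reads took the windows called lower from 1228 to 730 of 21163.

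In steps along the locus, the segment from 5 to 1 kb on the Wt1os side held 90 reads in WT against 23 in Lsh_KO, a level 5.56-fold lower (3.49 to 9.21). The central 4 kb, from 1 kb on the Wt1os side to 3 kb on the Wt1 side, held 321 and 346, 1.32-fold lower (1.13 to 1.54). From 3 to 9 kb on the Wt1 side the counts were 210 and 119, 2.51-fold lower (1.99 to 3.17). The 3 segments were drawn after the values were seen. Among 1 kb steps with at least 20 reads in both libraries together, the one with the lowest ratio lay 3 to 2 kb on the Wt1os side, with 40 reads in WT against 5 in Lsh_KO, 11.4-fold lower (4.49 to 36.9). The highest ratio was 1 to 2 kb on the Wt1 side, with 105 and 121 reads, 1.23-fold lower (0.940 to 1.61).

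**Figure D3:**
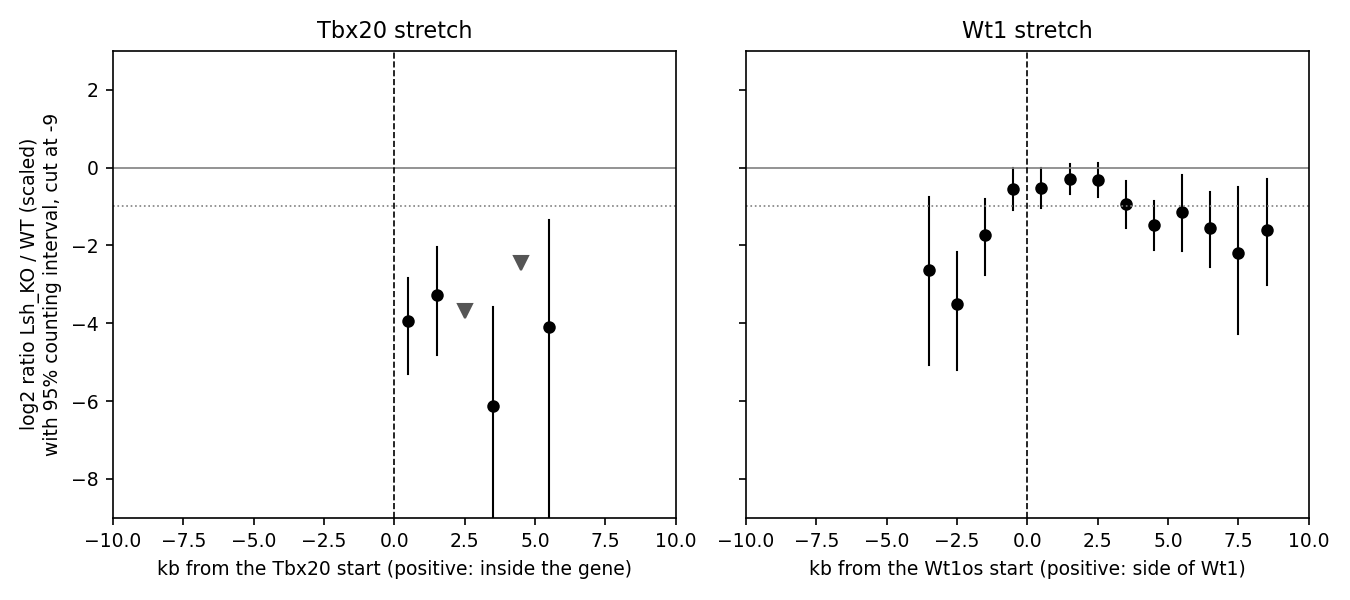
Scaled log2 ratio of Lsh_KO to WT (y axis) in 1 kb steps from the Tbx20 start (left) and the Wt1os start (right), for steps with at least 10 reads; points carry 95% counting intervals, triangles are upper limits at steps with 0 Lsh_KO reads, and the dotted line is 2-fold lower. All drawn Tbx20 steps lie below the dotted line, whereas the Wt1 curve comes closest to 0 between -1 and 3 kb and is lower on both sides.

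Inner and outer parts of the Wt1 mark were also set beside those of other promoters, with bounds chosen after the values were seen. Within 2 kb of the Wt1os start lay 268 reads in WT against 262 in Lsh_KO (1.45-fold lower, 1.22 to 1.73), and from 2 to 8 kb on both sides 346 and 221 (2.22-fold lower, 1.87 to 2.65). The outer ratio was 0.654 of the inner one (exact conditional interval 0.510 to 0.836), a log2 difference of -0.61. The median over 7852 placed promoters with at least 20 reads in each part was -0.48, a value that includes outer parts at background, and 42.5% were as low as Wt1os. Among 248 promoters with at least 100 outer WT reads, the median was -0.04 and 24 were as low, 9.68%. That bound used WT reads alone, in which Wt1os is high, and the stretch was chosen for lower Lsh_KO counts. The share of 9.68% therefore supports nothing further. With 346 outer reads Wt1os was itself at the top of the 7852, and 1 was as high, which is Wt1os.

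Away from the centre, the Wt1 stretch held more reads than background over most of its length. The 24 windows marked in neither line held 5.21 WT and 3.08 Lsh_KO reads each, 3.83 and 2.26 times background. The 20 marked windows with under 20 WT reads held 12.1 and 7.55 reads each, 2.27-fold lower (1.84 to 2.80). In all, 23 of the 50 windows were marked in WT and 13 in Lsh_KO. In the adjacent 100 kb on each side the reads per window were 4.96 and 3.56 before the stretch and 2.66 and 1.86 after it. The 5 Mb around the stretch had a background ratio of 0.860 (0.824 to 0.897), scaled by total background reads and not by 1.42. Fewer Lsh_KO reads were thus found there outside marked windows too. The part of this background in the lower outer windows was not tested beyond the scaling above.

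Of the 6 nearest placed genes around the Wt1 stretch 1 was called lower and none higher, where 3.38% of all placed promoters with at least 20 reads were called lower and 2.06% higher. Eif3m, a subunit of a translation initiation factor, held 66 WT and 82 Lsh_KO reads within 1 kb (log2 -0.19), and shares them with the noncoding Gm38521 (66 and 79). Prrg4 held 26 and 26 (log2 -0.51). On the other side Pax6, the transcription factor of eye and pancreas development, held 18 and 10 reads and was called lower (log2 -1.35), but was not called under scaling by total reads or with the 5 Mb background ratio. Elp4 and Immp1l, which share a start region, held 81 and 125, and 81 and 126.

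Over the Wt1 centre and its flanks, between 104922001 and 104936000, 31.5% of 903 WT and 31.9% of 715 Lsh_KO reads were repeats, and 99 of 619 and 85 of 487 distinct reads carried a mismatch. GC content was 55.9% and 55.7%, and observed over expected CpG 0.526 and 0.560.

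Set side by side within 1 kb of the start, Tbx20 held 78 WT and 12 Lsh_KO reads, 9.24-fold lower, and Wt1os 130 and 129, 1.43-fold lower. The Wt1os ratio was 6.42 times the Tbx20 ratio (exact conditional interval 3.28 to 13.6). Tbx20 was called lower and Wt1os was not. Of 9383 placed promoters with at least 20 reads, 317 were called lower, 3.38%, and 193 higher, 2.06%. A ratio as low as that of Tbx20 was found in 30 of them, 0.320%, and one as low as that of Wt1os in 9.25% of the 9382 others. Tbx20 was not among the 9383, since its single read with 1 mismatch did not meet their rule of 2 reads without a mismatch. WT reads at Wt1os were reached by 45 of those others, 0.480%, and those at Tbx20 by 14.7%. With repeats kept, the Wt1os log2 ratio of -0.52 was -0.90, and under scaling by total reads it was -0.19.

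**Figure D4:**
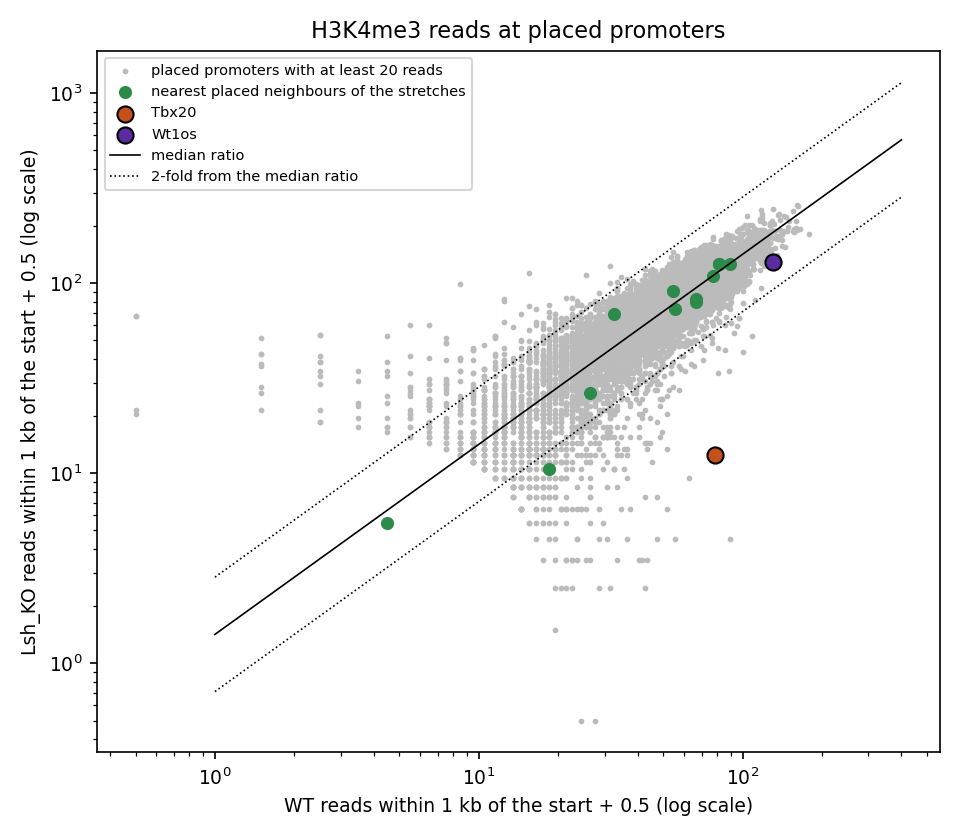
Reads within 1 kb of each placed start in WT (x axis) and Lsh_KO (y axis), 0.5 added, both axes log scale; the solid line is the median ratio and dotted lines are 2-fold from it. Tbx20, at 78 and 12 reads, lies far below the lower dotted line; Wt1os, at 130 and 129, lies between the lines with most placed neighbours, and Pax6, at 18 and 10, lies just below the lower one.

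The reads present only in the deposited window lists gave a second count from the same libraries, scaled by their own median ratio. They are a technical repeat and not a second culture. They also belong to the deposited counts by which the stretches were chosen, so calls among them support nothing further. At Tbx20 the 4 marked windows held 204 such WT reads and 19 in Lsh_KO, 15.4-fold lower (9.59 to 26.1), beside 14.3-fold in the distinct reads. The other 46 windows of that stretch held 55 and 38, 2.07-fold lower (1.35 to 3.22), beside 1.52-fold. The 26 marked windows of the Wt1 stretch held 695 and 496, 2.01-fold lower (1.78 to 2.26), beside 1.89-fold. All 3 Tbx20 windows were called lower again. Of the 7 Wt1 stretch windows with at least 20 such reads, 5 were called lower, all of them among the 7 called before; the share over the genome was 4.99%. The central 4 kb at Wt1 held 322 and 322 of these reads, 1.43-fold lower (1.22 to 1.68), and the Wt1os side, from 5 to 1 kb, 70 and 17, 5.89-fold lower (3.43 to 10.7).

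Other regulators of the same tissues were read from lists of known genes. Of 34 heart genes 10 had a placed start and 9 at least 20 reads; 1 was called lower and none higher, beside 3.38% and 2.06% of all placed promoters, and the median log2 ratio, with 0.5 added to counts, was -0.08 against 0.04 over all placed promoters. The lower one was Hand2, a helix-loop-helix factor of heart and limb, with 90 and 61 reads within 1 kb (log2 -1.07), which was not called under scaling by total reads. The chromatin subunit Smarcd3 held 43 and 74 reads (log2 0.28) and Srf, a factor of muscle and growth genes, 67 and 83 (log2 -0.20). Of 17 T-box genes 4 were placed, 3 with at least 20 reads, and none was called: Tbx18, an epicardial factor, held 40 and 66 reads (log2 0.22), Mga 25 and 62 (log2 0.80) and Eomes 13 and 20 (log2 0.11). Mga was called higher under scaling by total reads and with the 5 Mb background ratio.

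Of 39 kidney, gonad and epicardial genes 16 were placed and 12 had at least 20 reads, with a median log2 ratio of 0.12, 1 called lower and 1 higher, beside the same 3.38% and 2.06%. Lhx9, a LIM homeobox factor of the gonad, held 23 and 14 reads (log2 -1.22), and was not called under scaling by total reads or without mismatched reads. Lhx2, its relative, held 22 and 68 (log2 1.12). The most reads were at Emx2, a homeobox factor of the urogenital tract, with 82 and 128 (log2 0.14), Upk3b, a mesothelial membrane protein, with 91 and 115 (log2 -0.17), and Bnc1, a zinc finger factor of mesothelium and keratinocytes, with 91 and 87 (log2 -0.57). Of the 10 placed fibroblast markers 1 was called lower and none higher, beside 3.38% and 2.06%. Fbn1, a matrix microfibril protein, was the lower one with 63 and 44 reads (log2 -1.02), and not under 4 of the 6 alternatives tried on it. Sparc held 73 and 130 (log2 0.33) and Col5a1 88 and 112 (log2 -0.16). Starts without 2 matching reads, Tbx20 among them, were left out, so the lists favour marked promoters.

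The placed promoters nearest to Tbx20 in their pair of levels were Lrrk2, a kinase, with 62 and 9 reads, Ust, a sulfotransferase, with 51 and 13, and Cgas, a sensor of cytosolic DNA, with 45 and 11. Ifit1 and Ifit1bl2, interferon-induced genes whose starts share reads, held 49 and 16, and 48 and 15. All 5 were called lower, 4.35-fold to 9.79-fold, beside 3.38% of all placed promoters with at least 20 reads. Those nearest to Wt1os were Cptp and Ints11, which share reads (129 and 128, 126 and 126), Dusp5 (122 and 124), Rgl2 (134 and 140) and 2700081O15Rik (119 and 127); none was called. Likeness is the distance in log2 reads over these 2 libraries only. The calls near Tbx20 and near Wt1os follow from choosing promoters by their levels and are no result about them.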

How the data were processed

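H3K4me3 was measured by sequencing of precipitated chromatin in 1 WT and 1 Lsh_KO line. Chromatin of 20000000 cells was cut by micrococcal nuclease, per the labels, and 20 amplification cycles and a gel selection of 200 to 400 bp followed. Build mm8 comes from the submitters' processing notes, and no aligner is named (not given in the sources used here). The authors deposited a list of 25-base reads with a position, strand, match code and alignment score (4 to 53). They also deposited whole-number counts of reads per 200 bp window, without normalisation in the values. With duplicates removed and the leftmost base shifted by 100 bp, listed reads never exceeded these counts, which left 1598335 WT and 1759904 Lsh_KO further reads.

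Distinct reads, moved 75 bp from their 5′ end, were counted in 2 kb windows and within 1 kb of placed starts. A start was placed by exact matches of at least 2 reads within 5 bp, on the chromosome RefSeq gives, and the first placed start in table order was used per gene. Intervals are exact conditional (Clopper-Pearson), 95%. The named genes are Tbx20, Wt1os, Hells, the 3 nearest placed genes on each side, called or most-read list members, and the 5 nearest in levels. The members and lists were chosen with earlier results of these data known. The single-read start of Tbx20, the use of Wt1os in place of Wt1, the region rule and the inner and outer parts were chosen after the data were seen. The call rule was tried on simulated counts that carried counting error only. The placing was tried on bases cut without a mismatch from the promoter sequences searched, so that trial could hardly fail. Neither trial covered the single-read start of Tbx20. Tools were scipy 1.17.1, numpy 2.4.6 and pandas 2.3.3 under Python 3.11.15, with figures by matplotlib 3.10.9.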

Additional observations from a re-analysis of the deposited data

How the results depend on the processing

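Values in this paragraph are log2 ratios of Lsh_KO to WT or counts of calls. The Tbx20 marked windows stayed lower under every alternative run, from -4.44 to -2.07, and the latter value is over all 50 windows of the stretch, most of them at background. The 3 lower Tbx20 windows were 5 with windows of 1 kb. Wt1 depended on the scaling: its marked windows stood at -0.92, at -0.58 under scaling by total reads and at -0.74 with the 5 Mb background ratio. The 7 lower Wt1 windows were 3 under either of those scalings, 11 with windows of 5 kb and 11 with at least 10 reads together. Over the genome, scaling by total reads took the lower windows from 1228 to 730 of 21163. The genome share under the other settings was not computed, so these counts are no result about the stretches. The Wt1os promoter was -0.90 with all reads kept. Promoter calls under scaling by total reads were 179 lower and 514 higher, against 317 and 193. In the further reads, scaling by total reads gave -0.63 for the Wt1 windows and -0.16 for the Wt1os promoter. The other 83 values of the main comparisons stayed within their counting interval or within 1.5 times the count, and so did 226 of 228 values of 38 named promoters. Of those 228 values 31, at 16 promoters, differed in sign from the value reported, none of them at a promoter called lower or higher; 10 were under scaling by total reads, which took Hells from -0.04 to 0.29 and Srf from -0.20 to 0.13. Scaling by total reads turned the balance of all called windows, from 37.3% higher to 71.6%. No paired analysis was possible because each group has 1 library. Leaving out a library leaves no comparison. The Tbx20 start rests on 1 matching read, and 12 Lsh_KO reads carry its ratio.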

Other observations

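Some starts on the gene lists held too few reads to be called or differed between the kinds of reads. Fgf10, a growth factor of limb and lung buds, held 16 WT and 0 Lsh_KO distinct reads within 1 kb, and 12 and 0 further reads. This is below the 20 reads that a call needs. Eomes held 13 and 20 distinct reads but 13 and 4 further reads, so its direction differed between the kinds. Amhr2, the receptor of anti-Müllerian hormone, held 8 and 6 distinct and 11 and 3 further reads. Lhx2 was higher in both kinds, with 22 and 68 distinct reads and 14 and 65 further reads. Prrx1, a homeobox factor of limb mesenchyme, held 33 and 79 distinct and 20 and 67 further reads, and was not called in the distinct reads. In the Tbx20 stretch, the window from 24540001, upstream of the gene, held 1 WT and 7 Lsh_KO reads, the highest unmarked Lsh_KO count there, but 1 and 1 further reads; it was chosen after its values were seen.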
